A study of Mus musculus with 13 samples.

Results

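Clustered intronic editing sites are positions inside introns where adenosine was read as guanosine and where several such positions lie close together. The sites were taken from 3 deposited tables of base counts at listed editing positions, 1 for each comparison with wild type, joined on chromosome, position and strand. Of 39309 joined sites with adenosine on their strand, 31396 lay inside a gene on that strand and in no exon there, and 15733 of those had at least 3 other joined sites within 100 nt. The last step kept the 4168 sites covered by 10 or more A or G reads in all 13 libraries. They fell into 802 clusters, chained at gaps of up to 100 nt, in 404 host genes of GENCODE M21, and all positions are in mm10. The editing level of a site is the share of G among its A and G reads. At the edges of the rule, the 699 intronic sites with exactly 3 neighbours had a median level of 10.8%, and the 723 with exactly 2 neighbours had 10.3%. The 628 clustered sites whose lowest library held 10 reads had a median of 11.8%, and the 944 whose lowest held 9 reads, which were left out, had 12.6%.

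The study sequenced RNA of whole adult brain, 1 library per mouse, from C57BL/6 animals of 4 Adar genotypes. The 3 P195A/- mice, with P195A over a null allele, were 42 days old. The 4 P195A/P195A mice, 2 of 42 and 2 of 48 days, had P195A on both alleles. The 3 P195A/+ mice of 43 days had P195A over a wild-type allele, and the 3 WT mice were 48, 48 and 74 days old. Each genotype had 1 male. A longer label of the P195A/- mice gives P195A on each side together with AdarKO/+ without explanation, and the shorter label was followed. The labels name no transgene or Cre driver.

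ADAR enzymes deaminate adenosine to inosine in double-stranded RNA, and inosine is read as guanosine in sequencing. Most editing in mammals falls outside coding sequence, in introns and 3′ ends where a repeat element pairs with an inverted copy nearby. Such long duplexes are typically edited at many adenosines, each to a different extent, which gives clusters. Adar encodes ADAR1, whose interferon-inducible long form p150 carries a Z-nucleic acid binding domain, and P195A is a substitution in that domain. Adarb1 encodes ADAR2, a largely nuclear enzyme abundant in neurons, and Adarb2 encodes ADAR3, a brain protein with no known catalytic activity.

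Reference sequence is shown for 6 clusters, to let a reader see what a cluster looks like and how 4 of them share letters. They are 6 of the 7 clusters where an annotated transcript of the other strand covers members, from which the GENCODE M21 (GRCm38) letters were read and reversed. Each line runs 5′ to 3′ on the host strand, and capitals mark member sites. The A930015D03Rik line is limited to the letters it shares with the next 3.
A930015D03Rik, chr17:36006468-36006496, plus strand: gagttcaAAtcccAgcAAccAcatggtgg
Tmem69, chr4:116552219-116552310, minus strand: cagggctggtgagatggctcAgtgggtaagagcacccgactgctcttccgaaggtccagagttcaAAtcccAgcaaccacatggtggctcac
Dmtf1, chr5:9156080-9156179, minus strand: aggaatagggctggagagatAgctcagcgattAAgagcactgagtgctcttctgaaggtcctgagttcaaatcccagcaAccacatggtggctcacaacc
Tra2a, chr6:49256402-49256462, minus strand: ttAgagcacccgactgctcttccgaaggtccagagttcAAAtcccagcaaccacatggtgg
Gm21992, chr19:4760972-4761125, minus strand: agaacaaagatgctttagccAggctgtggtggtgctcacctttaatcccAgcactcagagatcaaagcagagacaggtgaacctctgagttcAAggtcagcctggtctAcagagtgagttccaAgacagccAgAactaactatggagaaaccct
Ube3a, chr7:59233695-59233761, plus strand: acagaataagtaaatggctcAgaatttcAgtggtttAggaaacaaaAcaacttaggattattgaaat

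All 31 members with sequence read A at the capital position. The first 4 lines share the 29-letter run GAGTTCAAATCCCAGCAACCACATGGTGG. On either strand, that run is in 17 of 32851 RefSeq promoter windows (GRCm38.p6), 0.0517%, and in 724 of 141767 GENCODE transcripts, 0.511%. Counted from the first letter of the run, the A at position 8 was a member in 3 of the 4 clusters, with levels over the 13 libraries of 16.2% in Tra2a, 7.41% in Tmem69 and 5.63% in A930015D03Rik. The A before it reached 33.9% in Tra2a, and the A after it 7.67% in A930015D03Rik, 5.29% in Tmem69 and 1.85% in Tra2a. At position 8 the genotype means ran from 15.1 to 17.6% in Tra2a, above those of Tmem69 and A930015D03Rik. These ran from 4.02 to 9.76% and from 1.91 to 7.98% and overlapped. Whether reads of this run, which other transcripts also hold, were placed correctly was not tested. Tra2a encodes a splicing factor and Dmtf1 a transcription factor. Ube3a encodes a ubiquitin ligase, and Gm21992 is a predicted gene.

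The base after the edited A was G at 14 of the 31 members, 45.2% (95% exact Clopper-Pearson interval 27.3 to 64.0%). The base before it was G at 1 of 31, 3.23% (0.0816 to 16.7%). At the 3476 exonic joined sites with the same depth and with sequence, the shares were 44.5% for G after and 10.2% for G before. The 31 members come from 7 clusters and are not independent, and these intervals cover counting error only.

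Gene counts totalled 13539583 to 22399172 per library. Reads at the 4168 members summed to between 80902 and 175513 per library, with a median of 17 to 37 reads per site, and no member exceeded 448 reads in a library, far below the cap of 3000. C and T made up 0.0151% of the reads there. Marker levels are given as CPM of the library's total gene count. The neuronal gene Snap25 stood at 1073 to 1465 CPM in the 13 libraries, and the liver gene Alb at no more than 0.156 CPM. All 3 olfactory bulb markers were lowest in P195A/- or P195A/+ libraries: Cdhr1 ranged from 3.45 to 10.4 CPM in P195A/-, 19.7 to 24.8 CPM in P195A/P195A, 4.28 to 6.33 CPM in P195A/+ and 12.1 to 15.5 CPM in WT libraries. Doc2g ranged from 0.769 to 2.26, 3.57 to 5.59 and 0.992 to 1.10 CPM in the same P195A groups and 2.41 to 2.84 CPM in WT, and Eomes from 2.43 to 10.8, 9.74 to 12.1 and 5.29 to 8.54 CPM, against 8.32 to 11.01 CPM in WT. Their part in the editing results was not tested. In bulk tissue, fewer cells of a type and less RNA per cell cannot be told apart.

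Most members were edited at a low level. Over the 13 libraries the median was 11.8%, with quartiles of 5.87 and 23.7%. Of all members, 266 exceeded 50% and 37 exceeded 80%, while 817 lay under 5% and 48 under 1%. Neighbouring members of a cluster were a median of 7 nt apart, and 547 of 3366 neighbouring pairs, 16.3%, were directly adjacent. Adjacent sites differed by a median of 8.68 points, pairs 2 to 10 nt apart by 10.2 points, and pairs 11 to 100 nt apart by 8.71 points. The difference between adjacent sites was thus close to that between sites over 10 nt apart. Among adjacent pairs the 3′ site was the higher in 54.5%.

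Levels varied nearly as much inside clusters as over all members. The SD was 17.0 points over all members and 16.1 points within clusters. In the 547 clusters with 4 or more members, the range from the lowest to the highest site had a median of 30.7 points. The mean level of those clusters had a median of 16.1%, quartiles of 10.97 and 21.95%, and an SD of 8.80 points. Most of the spread thus lay between sites of the same cluster.

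**Figure D1:**
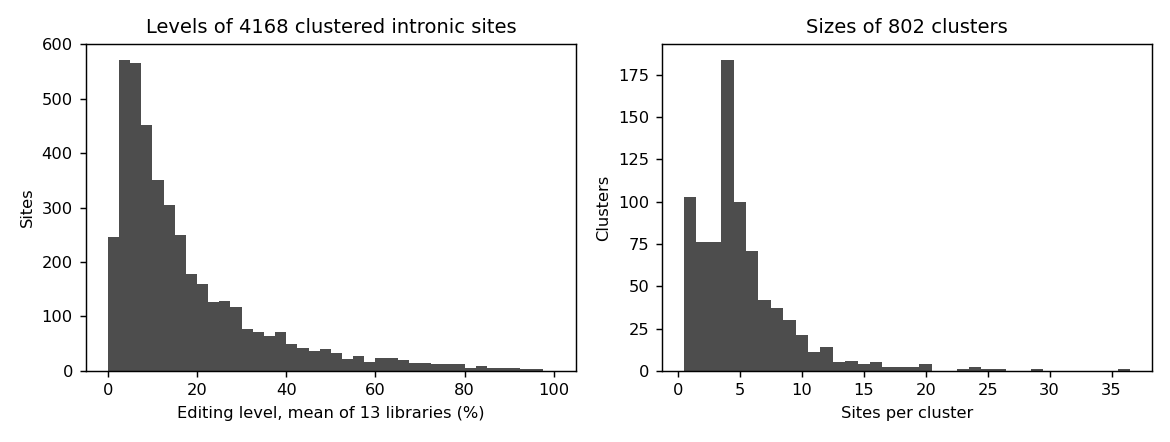
Left, number of clustered intronic sites against editing level in percent, averaged over 13 libraries, in steps of 2.5 points. Right, number of clusters against sites per cluster. The third quartile of the levels is 23.7%, and the median cluster holds 4 sites while the largest holds 36.

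Most members lay far from exons, in long introns. The median distance to the nearest exon of the host, taking the exons of every isoform together, was 9152 nt, and the median length of the intron was 42460 nt. Introns over 100000 nt held 1750 members, 42.0%, and only 51 members lay within 100 nt of an exon. The 679 members within 1000 nt of an exon had a median level of 14.4%. The 1519 farther off but within 10000 nt had 12.5%, the 1460 beyond those and within 100000 nt had 9.996%, and the 510 beyond had 11.8%. Of the 802 clusters, 456 shared their intron with another cluster, and 292 had one within 2000 nt, centre to centre.

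The 10 leading host genes held 1032 of the members, 24.8%. Kcnip4, a calcium-sensing subunit of Kv4 potassium channels, led with 239 sites in 33 clusters. Fgf14, a regulator of sodium channels, followed with 110, and Kcnd2, which encodes the Kv4.2 pore, with 109. Also among them were Nrxn3, a presynaptic adhesion molecule, with 102, Rbfox1, a neuronal splicing factor, with 95, Cadm2, a cell adhesion gene, with 91, and Pcdh9, a protocadherin, with 82. Nrg3, a neuregulin, held 70 and Fam155a 59. A single Fgf14 intron of 483607 nt on chromosome 14 held 21 clusters, and a Kcnd2 intron of 496721 nt on chromosome 6 held 19. By type, 4012 members lay in protein-coding hosts and the others in noncoding or pseudogene hosts.

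Grouped by function, in lists written with the host genes already known, 3 of 9 genes of the Kv4 channel complex held 379 members in 55 clusters, 9.09% of all members. They were Kcnip4, Kcnd2 and Dpp6, whose product is an accessory subunit. Among synaptic adhesion genes, 10 of 23 held 390 members, 9.36%. Of ionotropic glutamate receptor genes, 4 of 18 held 120 members, among them Gria4, Grik2 and Grin2a, and 3 of 8 metabotropic receptor genes, Grm4, Grm5 and Grm7, held 40. Of neuronal RNA-binding genes, 5 of 21 held 146. Voltage-gated sodium and calcium channel genes held few, 24 members in 3 of 20 genes, and GABA-A receptor genes 5 members in 1 of 14. Mean levels of the Kv4 group were 15.8 ± 1.06% in P195A/-, 16.4 ± 0.60% in P195A/P195A, 16.2 ± 0.54% in P195A/+ and 16.1 ± 0.87% in WT brains (SD, n = 3, 4, 3 and 3). The synaptic adhesion group stood at 16.03 ± 0.98, 16.7 ± 0.51 and 17.1 ± 0.49% in the same 3 P195A groups and at 15.9 ± 0.62% in WT. The sodium and calcium channel group stood at 18.4 ± 2.98, 20.2 ± 3.75 and 23.4 ± 3.64%, against 20.9 ± 1.005% in WT. The GABA-A group stood at 26.6 ± 9.04, 23.75 ± 3.41 and 35.55 ± 4.95%, against 22.3 ± 4.745% in WT.

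**Figure D2:**
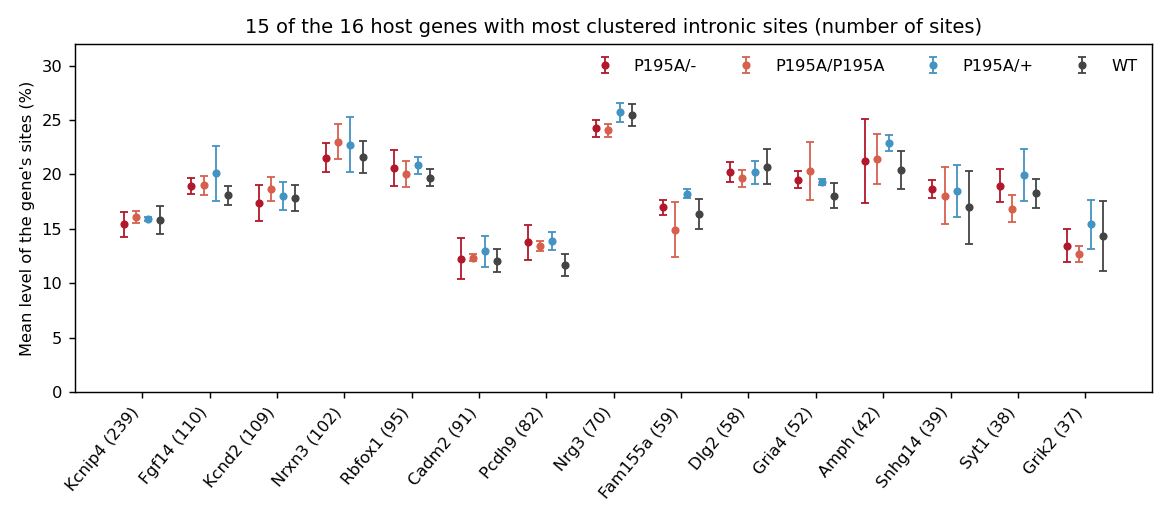
Mean editing level in percent of the clustered intronic sites of 15 of the 16 host genes with most of them, number of sites in brackets. Points are genotype means and bars are SD over 3 or 4 libraries, with P195A/- at the left and WT at the right of each gene. Over the 13 libraries Nrg3 averages 24.8% and Cadm2 12.4%.

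The 8 clusters with most sites are described first. The largest held 36 sites in 127 nt of a Fam155a intron (chr8:9706861-9706987, minus strand), 63090 nt from the nearest exon of this gene, which encodes a subunit of the NALCN sodium leak channel. Its sites ranged from 1.34 to 71.0%, and 13 of the 36 lay under 5%. Summed over its sites, the level was 16.6, 14.1 and 16.6% in P195A/- brains, 13.6, 13.3, 5.32 and 13.1% in P195A/P195A, 16.6, 15.9 and 12.8% in P195A/+ and 12.2, 12.1 and 17.3% in WT libraries. P195A/P195A replicate 3 stood far below the rest. Every P195A/- library lay above every P195A/P195A library, and each other pair of genotypes overlapped.

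Kcnip4 held 3 of the 8. The first (chr5:48898726-48899027, minus strand) had 29 sites of 1.42 to 50.02%, with a level of 11.6 ± 3.35% in P195A/-, 13.8 ± 1.95% in P195A/P195A, 11.4 ± 0.33% in P195A/+ and 11.5 ± 2.95% in WT. The second (chr5:48951072-48951638) had 24 sites over 567 nt and a level of 9.96 ± 0.64, 10.96 ± 1.42 and 10.7 ± 0.86% in the same P195A groups, against 8.72 ± 1.23% in WT. The third (chr5:49446976-49447068) packed 20 sites into 93 nt at 21.5 ± 3.57, 21.8 ± 0.96 and 22.4 ± 1.20%, against 20.7 ± 2.49% in WT. In each of the 3, at least 1 P195A library fell inside the WT range.

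Snhg14, the long noncoding transcript antisense to Ube3a in neurons, had 26 sites in a cluster at chr7:59333521-59333692 on the minus strand. Its level was 21.8 ± 1.13% in P195A/-, 19.9 ± 3.38% in P195A/P195A, 19.8 ± 2.53% in P195A/+ and 18.5 ± 4.52% in WT. The Rbfox1 cluster at chr16:6559100-6559256 on the plus strand had 25 sites, of which 12 reached 20% or more and the highest 90.1%. It stood at 28.9, 29.3 and 29.0% in P195A/- brains, 26.5, 28.7, 23.0 and 29.1% in P195A/P195A, 26.3, 27.8 and 28.2% in P195A/+ and 24.2, 27.1 and 27.1% in WT libraries. The P195A/- libraries were all above the WT libraries there, but the cluster did not pass (log2 odds ratio 0.21 ± 0.17, limma adjusted p = 0.916). A Dpp6 cluster (chr5:27282869-27283028, plus strand, 24 sites) stood at 11.8 ± 2.86, 9.40 ± 2.31 and 10.7 ± 2.84% in the P195A groups, against 11.4 ± 3.44% in WT. A cluster of 23 sites in Grm7, a metabotropic glutamate receptor gene (chr6:110701016-110701311, plus strand), stood at 8.71 ± 2.14, 10.2 ± 0.96 and 10.6 ± 0.88%, against 8.42 ± 2.97% in WT.

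**Figure D3:**
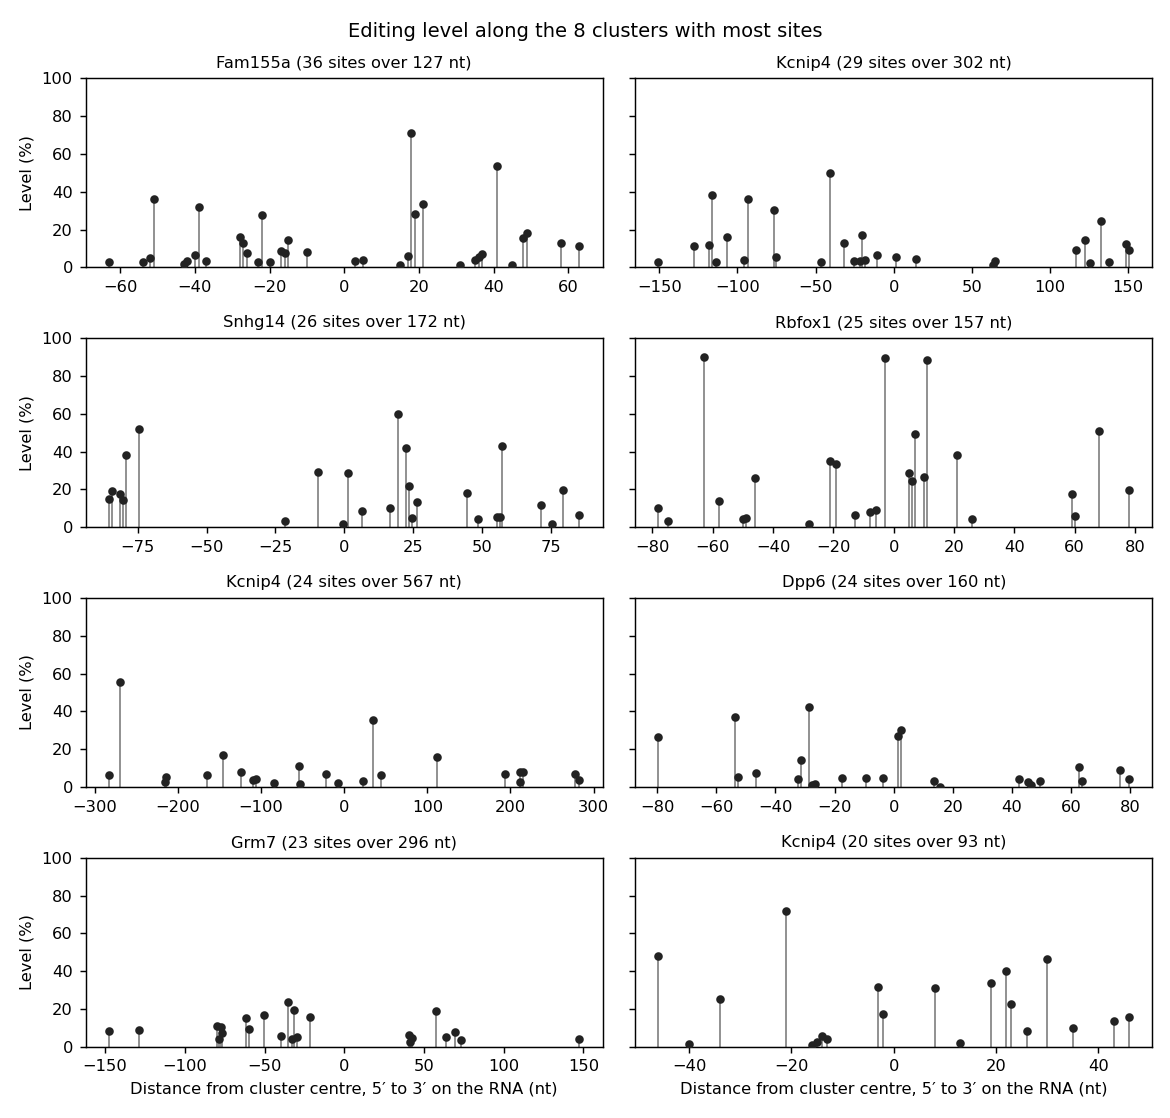
Editing level in percent, mean of 13 libraries, of each site along the 8 clusters with most sites, against distance in nt from the cluster centre along the RNA. Each stem is 1 site. The number of sites at 20% or more runs from 1 of 23 in Grm7, where the highest is 23.7%, to 12 of 25 in Rbfox1, where the highest is 90.1%.

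The sites with most reads were looked at in the Fam155a and Snhg14 clusters. In the Fam155a cluster, the site with most reads (chr8:9706879) was edited at 1.49% over the 13 libraries. In the Snhg14 cluster, the site with most reads (chr7:59333616) stood at 31.8, 42.6 and 40% in P195A/- brains, 25.3, 20, 37.9 and 31.7% in P195A/P195A, 34.9, 27.5 and 17.0% in P195A/+ and 10, 18.8 and 42.9% in WT libraries. It had 29 to 91 reads per library, and the genotypes overlapped widely.

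Among clusters of 4 or more sites, the highest mean level was 54.4%, in Kcnip4 (chr5:49491055-49491082). Its level was 55.3 ± 8.37% in P195A/-, 54.7 ± 6.68% in P195A/P195A, 52.7 ± 0.81% in P195A/+ and 55.0 ± 10.8% in WT. Next were Kidins220, a neurotrophin signalling scaffold (chr12:25060270-25060305), with a mean of 50.1% and Dusp11, an RNA phosphatase gene (chr6:85958374-85958400), with 48.6%. The Dusp11 cluster stood at 45.4 ± 6.47, 50.3 ± 1.12 and 52.0 ± 1.54% in the P195A groups, against 45.7 ± 8.17% in WT. At the other end, 4 sites in Zwint, a kinetochore gene, averaged 0.558%. Most libraries held no edited read there. The level was 0, 0 and 0% in P195A/- brains and 0, 0, 0 and 2.02% in P195A/P195A. It was 0, 0 and 1.71% in P195A/+ and 3.57, 0 and 0% in WT libraries. Kcnip4 also held one of the weakest clusters (chr5:49505304-49505389, 1.68%), in the same 238981-nt intron as its strongest, and Kcnd2 another (chr6:21441201-21441328, 2.54%).

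Of the genes with known recoding or self-editing sites, 5 of 23 held members, those described here being chosen after their values were seen. The Adarb1 cluster is the best-known case of self-editing: ADAR2 edits its own pre-mRNA and thereby creates an alternative 3′ splice site. It had 3 sites in a 160-nt intron (chr10:77322631-77322659, minus strand), the last 1 nt from the exon. That site (chr10:77322631) stood at 25, 35.1 and 33.3% in P195A/- brains, 21.8, 24.2, 35.3 and 33.3% in P195A/P195A, 32.4, 29.6 and 27.3% in P195A/+ and 30.8, 23.1 and 17.5% in WT libraries. All 4 genotypes overlapped. The other sites of the cluster averaged 8.51 and 8.75%.

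Blcap, whose transcript is recoded in its N-terminal region, had 6 sites with 53.6% at the highest. Gria4 and Grik2, glutamate receptor genes with recoding sites, had 52 members in 8 clusters and 37 in 9.

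Averaged over all 4168 members, editing was not lower in any P195A genotype than in WT. Library means were 17.87, 16.83 and 18.19% in P195A/- brains, 17.86, 17.67, 17.40 and 17.63% in P195A/P195A, 18.79, 17.98 and 18.88% in P195A/+ and 16.62, 16.30 and 17.64% in WT. All P195A/+ libraries lay above all WT libraries, while P195A/- and P195A/P195A overlapped with WT through its 74-day male. Genotype means were 17.63 ± 0.71, 17.64 ± 0.19 and 18.55 ± 0.49% in the 3 P195A groups and 16.85 ± 0.70% in WT. The differences from WT were 0.775, 0.785 and 1.70 points, against SDs within groups of 0.704, 0.513 and 0.606 points, and P195A/- differed from P195A/P195A by -0.00951 points. That last difference was -0.54 points with a minimum of 20 reads, and 0.388 points without P195A/- replicate 2. The difference of P195A/- from WT was 0.208 points with a minimum of 20 reads. With reads summed over the members in place of site means, the level was 17.24, 17.49 and 18.12 ± 0.54% in the 3 P195A groups and 16.64 ± 0.79% in WT, and there P195A/+ overlapped with WT too. Between the animals of 48 days alone, 2 P195A/P195A mice averaged 17.51% and 2 WT mice 16.46%. No p is given for these means, because the members were chosen with earlier results of the series known.

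Isolated intronic sites, with fewer than 3 neighbours, and clustered exonic sites were set beside the members at the same depth. The 2358 isolated sites averaged 13.36% in P195A/-, 14.16% in P195A/P195A, 14.89% in P195A/+ and 12.33% in WT, and all P195A/P195A and P195A/+ libraries lay above all WT libraries. The 2656 clustered exonic sites averaged 11.59, 12.67 and 12.46% in the same P195A groups and 11.77% in WT, and there every P195A/- library lay below every P195A/P195A library. All P195A/P195A and P195A/+ libraries lay above all WT libraries at the exonic sites too, with lowest values of 12.16 and 12.32% against a highest of 12.15% in WT. The members stood higher than both sets in every library. The difference between the sets in their response to genotype was not tested.

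**Figure D4:**
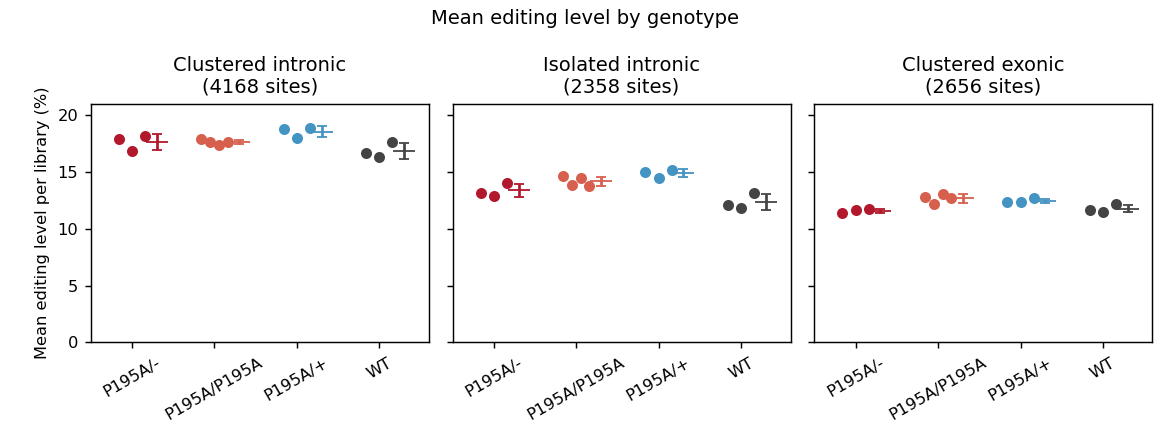
Mean editing level in percent per library (points) for clustered intronic sites, isolated intronic sites and clustered exonic sites, with genotype mean and SD beside them, WT at the right. Clustered intronic sites lie highest, between 16.30 and 18.88%, with genotype means of 16.85 to 18.55%.

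Split by their mean level over all libraries, the members under 5% stood at 3.12% in P195A/-, 3.03% in P195A/P195A, 3.34% in P195A/+ and 3.18% in WT. The 981 members of 20 to 50% stood at 31.2 ± 1.29, 31.0 ± 0.26 and 32.8 ± 1.13%, against 29.5 ± 1.09% in WT. The 266 members above 50% stood at 66.4 ± 1.49, 65.8 ± 0.76 and 67.5 ± 0.56%, against 64.5 ± 2.30% in WT. In each band from 5% upward all 3 P195A means were above the WT mean.

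Single members were tested with edgeR's quasi-likelihood test on edited and unedited reads, over every site of each comparison table with enough reads, with Benjamini-Hochberg adjustment. In P195A/P195A against WT, 3 of 4098 members tested passed at an adjusted p under 0.05, all higher, beside 24 of 11551 sites in all, 0.208%. The share of members was 0.0732%, below that of all sites, and rests on 3 calls. In P195A/+ against WT, 0 of 4100 members passed, with 2 of 14019 sites in all, 0.0143%. In P195A/- against WT, 0 of 4083 members and 0 of 14177 sites passed, 0%. In P195A/- against P195A/P195A, 0 of 4098 members passed, with 10 of 11818 sites in all, 0.0846%, each lower in P195A/-. Another 68 to 85 members per comparison fell outside the pooled level of 1 to 99% and were not tested. A test by limma on log2 odds called 0 sites in each comparison.

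At an unadjusted p under 0.05, edgeR gave 155 members, 3.80%, in P195A/- against WT, of which 91 were higher, beside 4.01% of all sites. It gave 255 members, 6.22%, in P195A/P195A against WT, 165 of them higher, beside 7.99% of all sites. In P195A/+ against WT it gave 231, 5.63%, of which 176 were higher, beside 6.06%. In P195A/- against P195A/P195A it gave 235, 5.735%, of which 98 were higher, beside 7.25%. With limma there were 202 members in P195A/- against WT, beside 5.33% of all sites, and in P195A/P195A against WT 199 higher and 114 lower, beside 8.31%. There were 274 in P195A/+ against WT, beside 7.21%, and 275 in P195A/- against P195A/P195A, beside 7.64%. The median log2 odds ratio of the members was 0.07, 0.09 and 0.16 for P195A/-, P195A/P195A and P195A/+ against WT, beside 0.07, 0.16 and 0.21 over all sites, and it was -0.02 for P195A/- against P195A/P195A, beside -0.09. These 3 comparisons with WT share the same WT libraries.

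Members whose groups did not overlap were counted beside the same over all 10613 joined sites of that depth. Groups of 4 and 3 libraries separate by chance less often than groups of 3 and 3. Shares in comparisons with P195A/P195A are therefore not on the scale of the others. Every P195A/+ library exceeded every WT library at 334 members, 8.01%, beside 7.95% of all, and the reverse held at 122 members, 2.93%, beside 2.88%. For P195A/P195A the counts were 183, or 4.39%, beside 5.4%, and 118, or 2.83%, beside 2.53%. For P195A/- they were 245, or 5.88%, beside 5.11%, and 156, or 3.74%, beside 3.69%. Between P195A/- and P195A/P195A, 126 members, 3.02%, were higher in every P195A/- library, beside 2.59%, and 146 were lower, beside 4.43%. The largest gap was in P195A/P195A against WT, where the members' share of higher sites was below that of all sites.

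The member with the smallest p lies in an intron of Gria4, which encodes an AMPA receptor subunit, 5041 nt from an exon (chr9:4437928, minus strand). Its level was 28.9, 20.9 and 27.3% in P195A/- brains, 68.6, 35.4, 56.8 and 35.8% in P195A/P195A, 46.9, 45.0 and 47.5% in P195A/+ and 13.9, 17.1 and 11.1% in WT libraries, from 27 to 64 reads each. All 10 P195A libraries lay above the 3 WT libraries. The log2 odds ratio was 2.42 ± 0.54 (SE) for P195A/P195A against WT (adjusted p = 0.00831) and 2.35 ± 0.56 for P195A/+ against WT (adjusted p = 0.0838), both by edgeR. The first call was lost without P195A/P195A replicate 1 or 3 (adjusted p = 0.136 and 0.0712) or without WT replicate 1, 2 or 3 (0.122, 0.0508 and 0.0963). The site lies in a cluster of 7, and the next site, 1 nt away, stood at 2.56, 5.20 and 1.87% in the P195A groups and 0.926% in WT.

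A Kcnip4 site 21775 nt from an exon (chr5:49307434, minus strand) stood at 40.9, 36.8 and 36.8% in P195A/- brains, 52.0, 66.7, 71.1 and 52.2% in P195A/P195A, 56.5, 45.1 and 46.3% in P195A/+ and 23.1, 40.5 and 27.9% in WT libraries. P195A/P195A and P195A/+ did not overlap with WT, and P195A/- did. Its log2 odds ratio for P195A/P195A against WT was 1.82 ± 0.42 (edgeR, adjusted p = 0.0115), and the call was lost without P195A/P195A replicate 2 or 3 (0.0866 and 0.0794) or WT replicate 1 or 3 (0.289 and 0.179). The remaining one was in Iws1, which encodes a transcription elongation factor, 550 nt from an exon (chr18:32085723, plus strand), with only 12 to 22 reads per library. It stood at 5.88, 31.3 and 16.7% in P195A/- brains, 27.3, 23.5, 60 and 26.7% in P195A/P195A, 33.3, 13.6 and 0% in P195A/+ and 4.55, 5 and 0% in WT libraries. Its log2 odds ratio was 3.74 ± 0.95 (edgeR, adjusted p = 0.0394). That call was lost in 6 of the 7 fits that left out 1 library, with adjusted p of 0.0607 to 0.381, and held without P195A/P195A replicate 2 (0.0447).

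**Figure D5:**
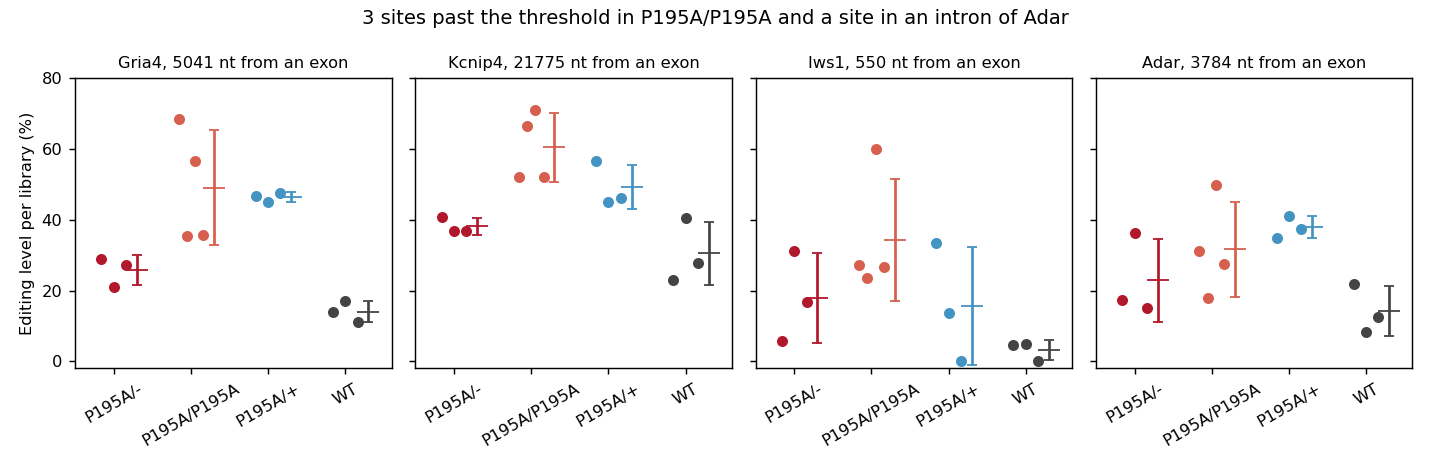
Editing level in percent per library (points), with genotype mean and SD beside them and WT at the right, at the 3 members that passed in P195A/P195A against WT and at the strongest site of the Adar intron, which did not pass. At the Gria4 site the 3 WT libraries lie between 11.1 and 17.1% and all others above them.

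In the other comparisons the smallest p belonged to members that did not pass. For P195A/+ against WT, after Gria4, it was a site in Rbfox1 (chr16:6644439, plus strand), at 11.9, 11.7 and 13.5% in P195A/+ and 2.44, 0 and 0% in WT (log2 odds ratio 3.62 ± 1.03, edgeR adjusted p = 0.549), and the ratio was 5.51 without WT replicate 1, the library with the 1 edited WT read. For P195A/- against WT it was a site in Fgf14 (chr14:124061576, minus strand), at 12.1, 22.2 and 10.5% in P195A/- and at 0 edited reads in 18, 22 and 23 WT reads. Next came Frmd4a, a scaffold gene (chr2:4095839, plus strand), at 60.5, 60.7 and 58.8% in P195A/- brains and 31.3, 31.3 and 21.4% in WT (log2 odds ratio 2.01 ± 0.67, edgeR adjusted p = 0.9996 for both). The Frmd4a site was above WT in each P195A library. For P195A/- against P195A/P195A it was a site in Rbfox2, a splicing factor (chr15:77109398, minus strand), at 17.2, 17.6 and 12% in P195A/- brains and 4.76, 3.41, 6.00 and 0% in P195A/P195A (2.29 ± 0.59, edgeR adjusted p = 0.0793). Next was Ndfip1, a ubiquitin ligase adaptor (chr18:38456622, plus strand), at 4.00, 0 and 0% in P195A/- brains and 29.2, 11.4, 19.2 and 20.5% in P195A/P195A (-3.66 ± 1.05, edgeR adjusted p = 0.220). Its ratio was -5.58 without P195A/- replicate 1, which held the 1 edited P195A/- read. Without those libraries 1 group has no edited read, so both ratios then depend on the fit and are no bound.

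Whole clusters were compared by limma on the log2 odds of their summed reads, over 1199 clusters of any class. None passed in any of the 4 comparisons, 0% of those tested. At an unadjusted p under 0.05 there were 48 of the 802 intronic clusters, 5.985%, in P195A/- against WT, 32 of them higher, beside 5.59% of all clusters. P195A/P195A against WT gave 70, 8.73%, of which 50 were higher, beside 7.92%. P195A/+ against WT gave 71, 8.85%, of which 65 were higher, beside 7.59%. P195A/- against P195A/P195A gave 62, 7.73%, of which 28 were higher, beside 8.26%. The median log2 odds ratio of the intronic clusters was 0.08, 0.08 and 0.15 for P195A/-, P195A/P195A and P195A/+ against WT, beside 0.05, 0.10 and 0.15 over all clusters, and -0.00372 for P195A/- against P195A/P195A, beside -0.06. With a minimum of 20 reads, which left 179 intronic clusters, the median turned to -0.01 for P195A/- against WT and was 0.06 and 0.14 for P195A/P195A and P195A/+. For P195A/- against P195A/P195A it was -0.12 with that minimum and 0.05 without P195A/- replicate 2, so its direction was not stable.

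An Fgf14 cluster of 4 sites (chr14:124061528-124061585, minus strand) was among the smallest p in both P195A/+ and P195A/-. It stood at 10.7, 9.57 and 9.38% in P195A/- brains, 5.04, 7.41, 10.6 and 7.48% in P195A/P195A, 11.1, 11.8 and 8.47% in P195A/+ and 3.13, 0 and 2.56% in WT libraries. All P195A libraries lay above all WT libraries, with log2 odds ratios of 2.46 ± 0.57 for P195A/- and 2.55 ± 0.57 for P195A/+ (limma adjusted p = 0.702 and 0.482). A cluster in the uncharacterised gene 1810026B05Rik (chr7:73550677-73550699) stood at 30, 24.8 and 35.5% in P195A/+ and 5.71, 16.9 and 11.9% in WT (1.77 ± 0.39, limma adjusted p = 0.482). In P195A/P195A the smallest p was that of the Kcnip4 cluster holding the site described above, at 23.9 ± 4.17% against 13.4 ± 1.48% in WT (0.99 ± 0.22, limma adjusted p = 0.355). The next was a lone Ppp1r2 site (chr16:31263274), at 9.42 ± 3.37% and at 0 edited reads in WT (limma adjusted p = 0.355). For P195A/- against WT the second was a lone Tom1l2 site (chr11:60307066), at 29.5 ± 1.55% against 12.9 ± 4.26% in WT (1.39 ± 0.39, limma adjusted p = 0.702). Between P195A/- and P195A/P195A a cluster in 1700047M11Rik (chr1:182299352-182299364) stood at 9.44 ± 2.10% in P195A/- and 24.4 ± 4.00% in P195A/P195A, and one in Cers1, a ceramide synthase gene (chr8:70324421-70324464), at 15.8 ± 2.55 and 7.65 ± 2.94% (limma adjusted p = 0.571 for both).

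Levels of single sites varied between libraries of 1 genotype. The SD of a site's level among the libraries of a genotype had a median of 5.37 points in P195A/-, 5.86 in P195A/P195A, 5.46 in P195A/+ and 5.60 in WT. Binomial counting of the reads alone gave medians of 6.15, 6.27, 6.22 and 6.33 points in the same order. The observed medians were below these. With so few libraries per genotype, however, the median of an observed SD lies below the underlying SD even under counting error alone. The comparison therefore cannot tell whether animals varied beyond counting error. Across the 4168 sites, the levels of any pair of libraries correlated with Pearson's r of 0.753 to 0.865, with a median of 0.816 within genotypes and 0.813 between them. Sites of a cluster share reads, so they are not independent points.

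Reads at the members, which come from RNA that holds intron sequence, varied more between libraries than the gene counts did. Scaled to the gene counts of the library, as for CPM, they were 9508, 7407 and 5942 in P195A/- brains, 7851, 12910, 3911 and 7276 in P195A/P195A, 5981, 8572 and 5203 in P195A/+ and 6190, 5509 and 5446 in WT libraries. P195A/P195A held both the highest and the lowest library. The groups overlapped in every comparison, and the library with fewest such reads had a mean level of 17.40%, inside the range of the others.

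Expression of the host genes was tested by edgeR's quasi-likelihood test on gene counts over 19962 genes, of which 400 were hosts. In P195A/P195A against WT, 1 host was called, beside 10 genes in all, 0.0501%. In P195A/- against P195A/P195A, 1 was called, beside 8 in all, 0.0401%. Both times it was Adar itself. In P195A/- and P195A/+ against WT, edgeR called 0 hosts, beside 7 and 2 genes in all, 0.0351% and 0.01%, and DESeq2 called 9 (4 higher, 5 lower), beside 0.847% of all genes, and 1 (Adar), beside 0.0952% of all genes. At an unadjusted p under 0.05, edgeR gave 61 hosts, 15.25%, in P195A/- against WT, beside 10.6% of all genes. It gave 37, 9.25%, in P195A/P195A against WT, beside 5.89%, and 29, 7.25%, in P195A/+ against WT, beside 4.48%. In P195A/- against P195A/P195A it gave 39, 9.75%, beside 6.82%. The share of hosts was above that of all genes in each comparison, and the reason was not tested.

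Levels of the genes tested are given as CPM after TMM scaling of the library sizes, unlike the marker levels above. Adar RNA stood at 196, 204 and 204 CPM in P195A/- brains, 346, 282, 340 and 323 CPM in P195A/P195A, 242, 245 and 232 CPM in P195A/+ and 187, 165 and 189 CPM in WT libraries. P195A/P195A was above every other library. The log2 fold change was 0.84 ± 0.08 (SE) for P195A/P195A against WT (edgeR adjusted p = 5.91e-05), 0.41 ± 0.08 for P195A/+ against WT (adjusted p = 0.232) and 0.16 ± 0.08 for P195A/- against WT (adjusted p = 0.506). It was -0.68 ± 0.08 for P195A/- against P195A/P195A (adjusted p = 0.000774). The order of genotypes in Adar RNA was not that in mean level, which was highest in P195A/+. Adarb1 stood at 304.9 ± 7.21, 303.8 ± 25.3 and 316 ± 35.7 CPM in the P195A groups and 305.5 ± 19.9 CPM in WT. Adarb2 stood at 49.5 ± 6.98, 58.4 ± 12.2 and 42.1 ± 0.99 CPM, against 43.9 ± 3.18 CPM in WT, and neither passed in any comparison.

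Adar also held a cluster of 4 members in its own intron (chr3:89720452-89720490, plus strand), 3763 nt from the nearest exon. Its level was 10.8, 17.8 and 7.14% in P195A/- brains, 11.3, 8.55, 16.5 and 12.2% in P195A/P195A, 9.52, 15.7 and 16.8% in P195A/+ and 7.81, 1.92 and 4.69% in WT libraries. Every P195A/P195A and P195A/+ library was above every WT library, and P195A/- overlapped with WT. By limma the log2 odds ratio was 1.32 ± 0.48 for P195A/-, 1.39 ± 0.45 for P195A/P195A and 1.63 ± 0.48 for P195A/+ against WT (adjusted p = 0.773, 0.429 and 0.577).

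Of 38 genes of the editing pathway, 36 were measured well enough to test: 3 enzymes, 17 regulators of editing or of double-stranded RNA, 7 readers of inosine RNA and 9 sensors of double-stranded RNA. Adar was the only one called, higher in P195A/P195A against WT and lower in P195A/- against P195A/P195A. In P195A/- and P195A/+ against WT edgeR called 0, and DESeq2 called 0 and 1. At an unadjusted p under 0.05, edgeR gave 3 genes of the list in each, 8.33%, beside 10.6% and 4.48% of all genes. The median log2 fold change of the list was 0.03, 0.08 and 0.04 for P195A/-, P195A/P195A and P195A/+ against WT. Over all genes tested it was 0.02, 0.007 and 0.004 in the same order. For P195A/- against P195A/P195A it was -0.01 in the list and 0.004 over all genes. Dhx58, which encodes the RNA sensor LGP2 and is named here after its values were seen, stood at 1.03 ± 0.16 CPM in P195A/-, 1.64 ± 0.36 CPM in P195A/P195A, 0.598 ± 0.07 CPM in P195A/+ and 0.581 ± 0.21 CPM in WT, with an edgeR adjusted p of 0.694 for P195A/P195A against WT.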

How the data were processed

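Whole-brain RNA of 13 mice was sequenced, and replicates are separate animals. Per the file headers, the authors ran JACUSA2 2.0.0-RC5 on a list of editing positions in strand-specific libraries, left duplicates out, and required a coverage of 3 with depth limited to 3000. The deposited tables give whole numbers of A, C, G and T reads per library, in mm10 per the submitters' processing notes, and the JACUSA2 score they also hold was not used in tests. A listed position can therefore have a level of 0. The authors' gene table holds estimated counts made with Salmon after trimming with fastp 0.19.5, per the submitters' processing notes, and these were rounded to whole numbers. No aligner is named in these sources. Reads without molecular identifiers are not independent molecules, so intervals cover counting error only.

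Gene and exon limits came from GENCODE M21. Each site was tested with edgeR 4.0.16 (quasi-likelihood) on edited and unedited reads of the genotypes compared, at sites with at least 10 reads in each of their libraries and a pooled level of 1 to 99%. Clusters were tested with limma 3.58.1 on the log2 odds of summed reads, with 0.5 reads added to each, and genes with edgeR. P-values were two-sided and adjusted by Benjamini-Hochberg over all features tested, and the tests were checked on simulated data. DESeq2 1.42.0 was an alternative for genes. Other alternatives changed the minimum reads, the level limits, the size factors, the terms of the model and the libraries used.

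Clusters and sites were named by size, by mean level and by smallest p, with the hosts Adarb1, Blcap and Adar added after their values were seen. Some hosts are not reported here. Sequences are of clusters where an annotated transcript of the other strand covers the intron, which differs from the naming rule, since no genome sequence was used here. The members and lists were chosen with earlier results of these data known. The tables of single libraries were not used here.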

Additional observations from a re-analysis of the deposited data

Results flagged for a closer look

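Of 35 values looked at in the 4 P195A/P195A libraries, 3 had 1 library far from the other 3. Chance alone flags about 1 in 20 such groups. The Fam155a cluster stood at 5.319% in P195A/P195A replicate 3, against 13.13 to 13.61% in the other P195A/P195A libraries. That library also had the fewest reads at clustered intronic sites, 80902 in all, and its part in the low value was not tested. The Iws1 site stood at 60% in P195A/P195A replicate 3, against 23.53 to 27.27% in the others, from 12 to 22 reads per library. The Zwint cluster, with a mean level of 0.558%, stood at 2.02% in P195A/P195A replicate 4 and at 0 in the other 3.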

How the results depend on the processing

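In P195A/P195A against WT, edgeR called 3 members, beside 0.208% of all sites. The count was 5 with a minimum of 20 reads (4 higher, 1 lower), beside 1.25%, 5 with pooled levels of 5 to 95%, beside 0.321%, 0 with limma, and 0 to 2 when 1 library was left out. In P195A/+ against WT it was 1 in place of 0 with a minimum of 20 reads and also with all 13 libraries in 1 fit, in both cases the Gria4 site (adjusted p = 0.0170 and 0.0331), beside 0.0661% and 0.0411% of all sites. In P195A/- against P195A/P195A it was 2 in place of 0 with a minimum of 20 reads and with levels of 5 to 95%, 1 higher and 1 lower each time, Rbfox2 being the higher (adjusted p = 0.0208 and 0.0304), beside 0.734% and 0.213% of all sites. The Iws1 call was also lost with no filter on level (edgeR adjusted p = 0.0781) and with sex as a term (0.0734). No cluster passed under any of the 46 alternatives run. DESeq2 called 1 host gene, which was Adar, in P195A/+ against WT, and so 1 pathway gene, beside 0.0952% of all genes, and 9 host genes in P195A/- against WT, beside 0.847%. The cause of these shifts was not tested.

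The mean level of P195A/- minus that of P195A/P195A moved to -0.54 points with a minimum of 20 reads. With 1 library left out, the differences in mean level ranged from 0.496 to 1.17 points for P195A/- against WT, 0.508 to 1.18 for P195A/P195A against WT, 1.42 to 2.09 for P195A/+ against WT and -0.289 to 0.388 for P195A/- against P195A/P195A. Analyses of females only, of 48-day animals only and of sites in exons of other genes were added after seeing the data.

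In editing, the deviations of same-numbered libraries correlated at -0.0326 to 0.0217 over 18 pairs, and those of different number at -0.0263 to 0.034 over 45. At a median of 17 to 37 reads per library, read counting adds spread to single sites, so these correlations may miss a shared block. In gene expression the 18 correlations ran from -0.115 to 0.326 with a median of 0.0631, 5 of them above 0.1, against a median of -0.0277 and 5 of 45 for pairs of different number. These values do not settle whether same-numbered libraries share more than a number. The main fits used no replicate block. With the replicate block, edgeR called 2 members in P195A/P195A against WT, beside 0.0866% of all sites, the Iws1 call being lost (adjusted p = 0.160), and 0 in each other comparison. With that block 0 clusters passed, and Adar was the 1 host and pathway gene called in P195A/P195A against WT and in P195A/- against P195A/P195A. The median member had 17 to 37 reads per library, which limits what single sites can show.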
